A study of Mus musculus with 6 samples.

Results

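The complement genes examined were 9 symbols chosen by name, C3, C4b, C1ra, Cfb, Cfi, Serping1, Cd55, Cd59a and Cd46, and 9 of 9 were found among the 22800 symbols of the tables. Expression was measured by RNA sequencing in 6 libraries of murine oviductal epithelial (MOE) cells, a line established from pooled oviducts of female outbred CD1 mice. MOELOW was the line early in culture (passages 8, 9 and 10) and MOEHIGH the same line after continuous passaging (passages 90, 103 and 113), with 1 library for each passage. Both groups were grown in the same serum-containing medium with epidermal growth factor, insulin, transferrin, selenite, gentamycin and estradiol. All libraries came from 1 line carried through 1 continuous series of passages. The spread between libraries of a group is therefore that between passages of this line and not between animals or independent lines.

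Complement is a set of plasma and surface proteins that tag cells and microbes and can puncture their membranes. It is started by antibody (classical route), by sugar patterns (lectin route) or by slow turnover of the component C3 (alternative route), and all routes meet at C3, whose fragments are deposited on surfaces before the membrane attack complex forms. Host cells hold the cascade back with soluble regulators and with surface regulators, and epithelial cells and fibroblasts are known to make several of these proteins outside the liver.

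Values are FPKM, fragments scaled to transcript length and to the mapped fragments of the library, so levels of different genes can be set side by side. The number of fragments behind them is unknown. Summed FPKM were 597161 to 770438 per library, and Pearson correlations of log2(FPKM + 1) over the tested genes were 0.972 to 0.987 within groups and 0.835 to 0.873 between them. The test between groups was that of limma on log2(FPKM + 1). It took in the 11621 genes whose mean over the 6 libraries reached 0.5 FPKM, and a gene was called at an adjusted p (Benjamini and Hochberg, over all tested genes) below 0.05. A log2 fold change is MOEHIGH minus MOELOW on this scale, and changes of low genes come out smaller on it than as plain ratios. The epithelial label was checked against 8 markers. The keratin genes Krt8, Krt18 and Krt19 were at 22.6 FPKM or more in all 6 libraries and Pax8, a transcription factor of Müllerian epithelium, at 41.0 FPKM or more, whereas Krt7 was at 0.317 to 2.79 FPKM and the oviductal glycoprotein gene Ovgp1 at 0.703 to 1.09 FPKM. The epithelial adhesion genes Cdh1 and Epcam were at 0.0821 FPKM or less in every library. Genes used by every cell can be listed at 0 in such tables, so a value of 0 is given only as listed at 0.

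The surface regulators Cd59a and Cd55 fell in MOEHIGH, C3 did not pass the test, and the other 6 members were below the minimum of 0.5 FPKM. Of the 3 members tested, 2 were lower and 0 were higher, where 32.1% of all tested genes were lower and 24.3% were higher, 56.4% in all. The groups did not overlap for the same 2 members, MOELOW being above, as for 35.5% of tested genes, and MOEHIGH was wholly above MOELOW for 28.5% of them and for 0 members. With so few members above the minimum, this share says nothing about the group as a whole. Cd59a and Cd55 also reached the minimum only through MOELOW, their MOEHIGH means being 0.142 and 0.00478 FPKM. Their being tested and their being called lower are therefore not independent. The member values ranged from listed at 0 to 13.4 FPKM, and 1 member in each group, Cd59a in MOELOW and C3 in MOEHIGH, was above 1 FPKM in all 3 libraries.

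**Figure D1:**
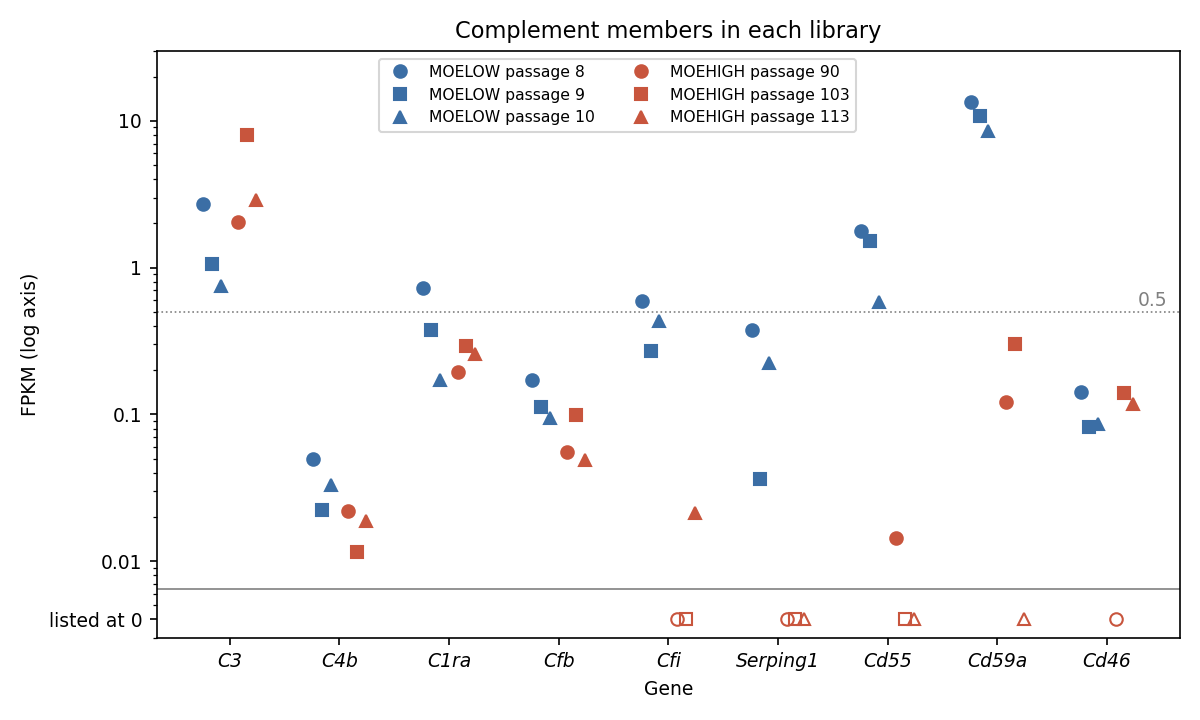
FPKM (log axis) of the 9 complement members in each of the 6 libraries, with MOELOW in blue and MOEHIGH in red, symbols for the passage, and open symbols under the line for values listed at 0. The dotted line is the minimum mean of 0.5 FPKM for testing. Cd59a and Cd55 are above it in all 3 MOELOW libraries and below it in all 3 MOEHIGH libraries.

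Cd59a encodes a lipid-anchored surface protein that blocks assembly of the membrane attack complex. It lies on chromosome 2 of mm10 from 104095753 to 104115410. Cd59a was at 13.4, 10.8 and 8.47 FPKM in MOELOW (passages 8, 9 and 10) and at 0.122, 0.303 and listed at 0 in MOEHIGH (passages 90, 103 and 113). The lowest MOELOW value was above the highest MOEHIGH value, so the groups did not overlap. On the log2 scale the change was -3.37 (standard error 0.18, 95% interval -3.78 to -2.96, adjusted p = 3.2e-06 from limma), and Cd59a was also lower in a test against a 2-fold change (adjusted p = 2.8e-05 from limma), which 7.8% of tested genes were. Because MOEHIGH values are near 0, the size of the fold rests on the added constant, and it was -5.70 with 0.1 and -7.17 with 0.01 in place of 1. Its neighboring copy Cd59b was at 0.0982 FPKM in passage 8 and listed at 0 in the other 5 libraries, and how any reads shared by the pair were divided is not known.

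The annotated start region of Cd59a, 250 bases before to 50 after the RefSeq start (GRCm38.p6, chr2:104095551-104095850, plus strand), is shown because this gene had the largest called change among the members. This start, at 104095801, lies 48 bases inside the gene bounds given above. The window was 45.7% G and C, where the median of 32851 promoters was 52.7%, and held 1 CG pair where the median was 7. It was searched on both strands for a TATA box (TATAAA), a GC box (GGGCGG), a C/EBP motif (TTGCNNAA), a STAT motif (TTCNNNGAA) and a kappaB motif, which were found in 13.6%, 35.7%, 10.8%, 8.3% and 8.46% of all promoters of this length. None of these letters occurred in it, so it has no capitals.
Cd59a: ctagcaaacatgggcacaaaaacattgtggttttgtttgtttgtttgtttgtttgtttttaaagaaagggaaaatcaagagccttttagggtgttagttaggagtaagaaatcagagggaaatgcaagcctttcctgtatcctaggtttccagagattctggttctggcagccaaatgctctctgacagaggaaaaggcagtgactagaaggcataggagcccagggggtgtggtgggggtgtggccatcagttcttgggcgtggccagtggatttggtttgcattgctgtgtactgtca

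Cd55, decay accelerating factor, is a surface protein that takes apart the enzymes that cleave C3. It lies on chromosome 1 of mm10 from 130429798 to 130465009. Cd55 was at 1.77, 1.51 and 0.580 FPKM in MOELOW and at 0.0143 FPKM in passage 90, with passages 103 and 113 listed at 0. No MOEHIGH value reached the lowest MOELOW value, that of passage 10. On the log2 scale the change was -1.15 (standard error 0.20, 95% interval -1.62 to -0.68, adjusted p = 0.0019 from limma). With 0.1 or 0.01 added it was -3.60 or -6.44. In the test against a 2-fold change, made with 1 added, Cd55 was not called (adjusted p = 1 from limma). At this level even values of 0 in all MOEHIGH libraries would give a fall little above 2-fold on that scale. That test could therefore not decide for Cd55. The main test used the listed zeros as values. With zeros treated as missing, 1 MOEHIGH library was left for Cd55 and 2 for Cd59a. The log2 fold changes were then -1.13 for Cd55 and -3.28 for Cd59a (for Cd59a adjusted p = 9.9e-06 from limma). The Cd55 value left, 0.0143 FPKM, was among the lowest 5% of values above 0 of single-transcript genes of like length. Those ended at 0.0240 FPKM in that library. Daf2, the neighboring copy of Cd55, was at 0.151, 0.0659 and 0.0341 FPKM in MOELOW and listed at 0 in the 3 MOEHIGH libraries. In the annotation 8117 bases of Cd55 overlap the long noncoding RNA gene Cd55os.

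The annotated start region of Cd55 (RefSeq, GRCm38.p6, chr1:130462695-130462994, minus strand, printed 5′ to 3′ along the gene) differed in composition from that of Cd59a, with 63.3% G and C and 12 CG pairs. It belongs to a transcript start at 130462744, which lies 2265 bases inside the gene bounds given above, and positions are counted from that start. A GC box on the reverse strand occurred at positions -77 to -72 and again at -7 to -2 from the start, given in capitals, and the other 4 motifs were not found in this window.
Cd55: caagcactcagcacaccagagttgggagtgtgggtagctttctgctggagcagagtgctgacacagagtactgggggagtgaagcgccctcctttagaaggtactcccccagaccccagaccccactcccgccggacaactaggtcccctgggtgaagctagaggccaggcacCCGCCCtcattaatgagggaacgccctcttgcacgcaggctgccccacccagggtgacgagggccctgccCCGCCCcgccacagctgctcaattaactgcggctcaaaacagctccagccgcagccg

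Cd46, the third surface regulator among the members, is a cofactor for the cleavage of deposited C3 and C4 fragments and in mice is known mainly from testis. Cd46 was at 0.141, 0.0823 and 0.0858 FPKM in MOELOW and listed at 0, then at 0.140 and 0.118 FPKM, in MOEHIGH. Its groups overlapped, and it was too low to be tested. It shares 74 bases with Cr1l on chromosome 1 in the RefSeq annotation.

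Cr1l (also Crry), a mouse regulator that combines the actions of the 2 proteins Cd55 and Cd46, was the most abundant surface regulator of the lists. Cr1l was at 38.9, 40.5 and 36.3 FPKM in MOELOW and at 24.2, 22.1 and 23.2 FPKM in MOEHIGH. It fell by 0.71 on the log2 scale (standard error 0.10, adjusted p = 0.00045 from limma) without overlap of the groups, and was not called against a 2-fold change (adjusted p = 1 from limma). The summed level of Cd55, Cd59a, Cd46 and Cr1l was 54.3, 53.0 and 45.5 FPKM in MOELOW and 24.4, 22.6 and 23.3 FPKM in MOEHIGH. Cr1l made up 71.7% to 79.9% of this sum in MOELOW and 98.0% to 99.5% in MOEHIGH, while the share of Cd59a went from 18.6% to 24.8% to between 0% and 1.34%. Thbd, thrombomodulin, which is better known for its part in clotting, was at 16.1, 12.5 and 9.28 FPKM in MOELOW and at 0.0543 FPKM in passage 103 and listed at 0 in passages 90 and 113. On the log2 scale it changed by -3.71 (standard error 0.18, adjusted p = 2.2e-06 from limma).

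**Figure D2:**
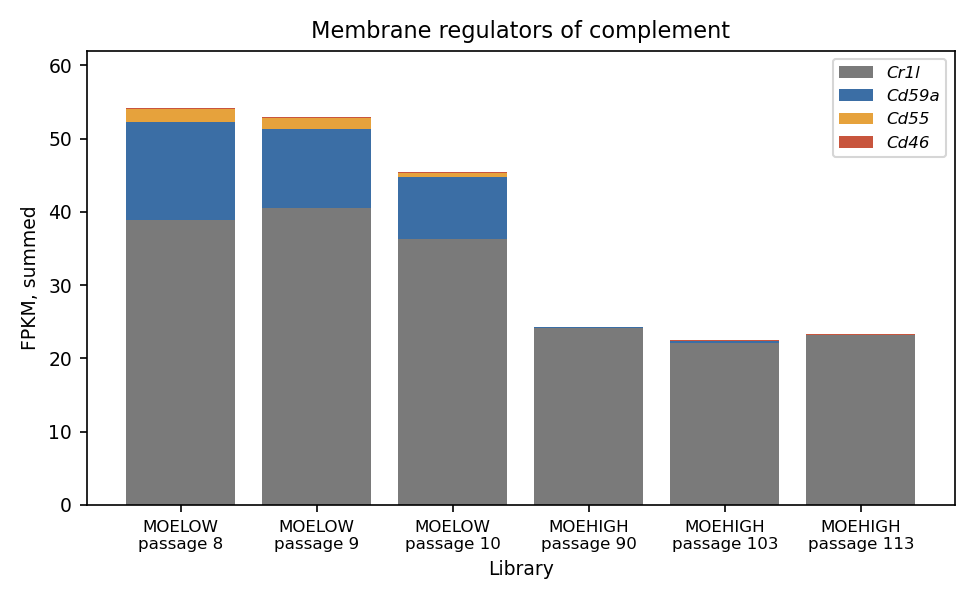
Stacked bars of FPKM of 4 membrane regulators of complement in each library, with the axis starting at 0. The sums are 45.5 to 54.3 FPKM in MOELOW and 22.6 to 24.4 FPKM in MOEHIGH, where nearly the whole bar is Cr1l.

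C3, the component on which all routes meet, varied widely between passages in both groups. It lies on chromosome 17 of mm10 from 57203967 to 57228136. C3 was at 2.73, 1.06 and 0.745 FPKM in MOELOW and at 2.03, 8.04 and 2.87 FPKM in MOEHIGH. Passage 103 stood above the other 5 libraries, and passage 8 of MOELOW was higher than passage 90 of MOEHIGH, so the groups overlapped. The log2 fold change was 1.0 (standard error 0.43, 95% interval -0.0012 to 1.99, adjusted p = 0.082 from limma), an interval that reaches from about no difference to a rise larger than that of C1qbp. The MOEHIGH mean was 4.31 ± 3.25 FPKM (SD, n = 3 passages) and became 2.45 FPKM without passage 103, where the log2 fold change was 0.53 (adjusted p = 0.22 from limma). Without passage 8 or without passage 90 it was 1.32 (adjusted p = 0.047 and 0.036 from limma), so the call depended on which library was left out.

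The start region of C3 (RefSeq, GRCm38.p6, chr17:57228087-57228386, minus strand) is shown because it held a C/EBP motif, at positions -45 to -38, and a TATA box, at positions 15 to 20, both in capitals and not overlapping. The TATA box thus lies after the annotated start. The C3 window was 53.3% G and C with 3 CG pairs, and the GC box, STAT and kappaB motifs were not found in it. The window of C1ra, not shown, also held a C/EBP motif, at positions 17 to 24, and a STAT motif, at positions 33 to 41.
C3: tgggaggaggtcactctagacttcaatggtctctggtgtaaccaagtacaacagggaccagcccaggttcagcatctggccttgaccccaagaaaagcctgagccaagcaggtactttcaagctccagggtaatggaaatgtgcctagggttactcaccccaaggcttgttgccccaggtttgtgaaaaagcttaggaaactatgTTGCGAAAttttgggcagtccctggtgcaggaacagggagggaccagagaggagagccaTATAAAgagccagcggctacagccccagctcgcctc

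**Figure D3:**
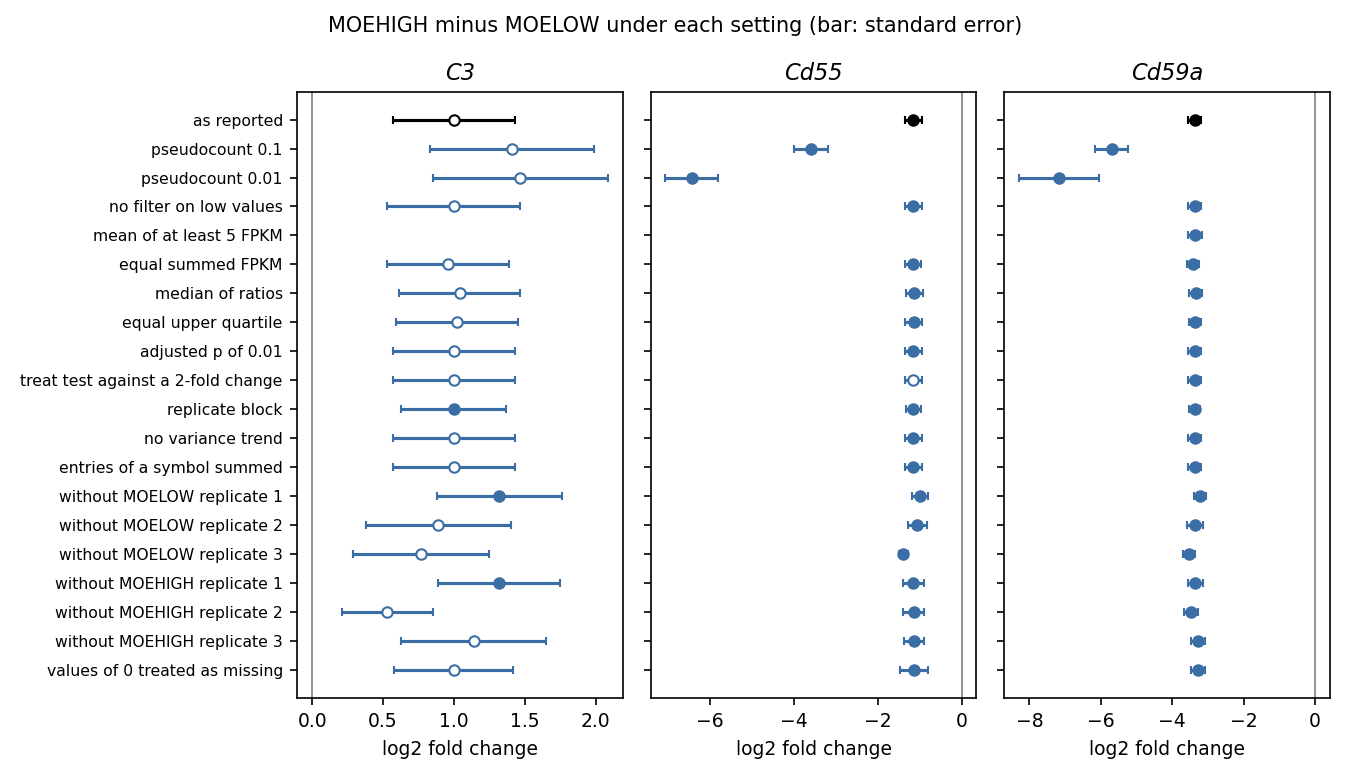
Log2 fold change (MOEHIGH minus MOELOW, log2(FPKM + added constant)) of the 3 tested members under each setting, with bars for the standard error and filled points where the gene was called. Cd59a is filled in every setting shown, Cd55 in all but the test against a 2-fold change, and C3 in 3 settings; C3 and Cd55 have no value at a mean of at least 5 FPKM.

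The remaining components averaged below the minimum, and C4b was near the lowest values of the tables. C4b, which passes the classical and lectin signal on to C3, was at 0.0494, 0.0222 and 0.0332 FPKM in MOELOW and at 0.0220, 0.0115 and 0.0188 FPKM in MOEHIGH. For single-transcript genes within 20% of its transcript length of 5379 bases, the lowest 5% of values above 0 ended at 0.0130 to 0.0308 FPKM, depending on the library, and 6 of 6 C4b values were within 3 times that end. C1ra, a protease of the C1 complex that starts the classical route, was at 0.725, 0.373 and 0.172 FPKM in MOELOW and at 0.195, 0.294 and 0.259 FPKM in MOEHIGH, with overlap. The factor B gene Cfb, the protease of the alternative route, was at 0.170, 0.113 and 0.0945 FPKM in MOELOW and at 0.0554, 0.0985 and 0.0490 FPKM in MOEHIGH. Set against genes of their own lengths, 0 of 6 C1ra values and 2 of 6 Cfb values were within 3 times that end. C4b and C1ra have near-identical copies next to them, C4a and C1rb, at 0.0557 to 0.173 FPKM and 0.0253 to 0.346 FPKM over the 6 libraries, so reads of each pair may have been divided between them.

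Of the soluble regulators among the members, Cfi encodes factor I, the protease that cuts deposited C3 and C4 fragments with the help of a cofactor. Cfi was at 0.594, 0.271 and 0.432 FPKM in MOELOW and, in MOEHIGH, listed at 0 in passages 90 and 103 and at 0.0214 FPKM in passage 113. When all 16525 genes with a value above 0 were tested, Cfi was lower (log2 fold change -0.50, adjusted p = 0.0030 from limma), as were 27.4% of those genes. Serping1, which encodes the C1 inhibitor, was at 0.376, 0.0365 and 0.225 FPKM in MOELOW and listed at 0 in the 3 MOEHIGH libraries. For genes of its length the lowest 5% of values above 0 ended at 0.0362 FPKM in passage 9, about its own value there. For Cfi that end was 0.0255 FPKM in passage 113, above its value. In that wider test Serping1 was not called (adjusted p = 0.065 from limma), nor were C1ra, C4b, Cfb and Cd46 (adjusted p = 0.11 to 0.74). Over the 9 members, 5 had no overlap between groups, with MOELOW above (Cd59a, Cd55, Cfi, Serping1 and, by a margin in the fourth decimal, C4b), where 33.1% of the 16525 genes did so.

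By level, Cd59a was the highest member in MOELOW, above C3 with no overlap of their ranges. The neighbors from C3 down through Cd55, Cfi, C1ra, Serping1, Cfb and Cd46 overlapped pair by pair, and C4b was lowest, apart from Cd46. In MOEHIGH the order began with C3, above C1ra with no overlap, and C1ra, Cd59a, Cd46 and Cfb overlapped pair by pair. Cfb was above C4b with no overlap, and C4b, Cfi, Cd55 and Serping1 closed the order with overlapping ranges.

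Within MOELOW, 9 of 9 members were highest in passage 8, where 40.5% of all genes above 0 in this group and 38.1% of tested genes were highest. In MOEHIGH, 5 of the 8 members above 0 were highest in passage 103, against 26.0% of all genes above 0. Markers of fibroblasts, a cell type known to make several complement proteins, were also examined. Of 11 fibroblast markers, 9 were highest in passage 8 within MOELOW, whereas within MOEHIGH 2 of the 7 above 0 were highest in passage 103 and 3 in passage 113. Between groups 7 of the 8 tested were lower and 0 were higher, where 32.1% of all tested genes were lower and 24.3% higher. Of the lower ones, Col1a2, Pdgfra, Pdgfrb and Postn reached the minimum only through MOELOW, so their being tested and called lower are not independent. The summed level of the markers was 651 to 1080 FPKM in MOELOW and 36.8 to 45.4 FPKM in MOEHIGH. Most of the MOELOW sum was Col1a1, at 460 to 661 FPKM. The periostin gene Postn, Thy1 and Fap were listed at 0 in the 3 MOEHIGH libraries, while the collagen gene Col1a1 was still at 11.6 to 22.9 FPKM and the decorin gene Dcn at 4.17 to 6.67 FPKM. The part of such cells in the fall of Cd59a and Cd55 was not tested, and in these bulk samples fewer cells of a type and less RNA per cell cannot be told apart. Without passage 8, Cd59a and Cd55 were still lower (log2 fold changes -3.22 and -0.99, adjusted p = 1.9e-05 and 0.0061 from limma). The MOELOW libraries kept in that fit, passages 9 and 10, still had Col1a1 at 460 and 591 FPKM. That fit is therefore no test of the part of such cells. Of 7 hepatocyte markers, Alb, Ttr and Serpina1b were listed at 0 in 6 of 6 libraries, and Apoa1, Cyp3a11 and Tat were too low to be tested. Trf was at 0.994, 0.698 and 1.18 FPKM in MOELOW and at 0.1, 0.185 and listed at 0 in MOEHIGH. It was called lower (log2 fold change -0.83, adjusted p = 0.001 from limma), but reached the minimum only through MOELOW. Of 11 macrophage markers in the tables, Emr1, Tyrobp and Cd163 were listed at 0 in 6 of 6 libraries. Of the 4 macrophage markers tested, 2 were higher, 1 was lower and 1, Cd68 at 1.34 to 2.14 FPKM, was not called. The mannose receptor gene Mrc1 was at 0.0753 to 0.118 FPKM in MOELOW and at 7.76 to 16.7 FPKM in MOEHIGH (log2 fold change 3.47, adjusted p = 1.2e-05 from limma). Mrc1 reached the minimum only through MOEHIGH. Csf1r also rose (0.65, adjusted p = 0.013 from limma). Cd14 fell (-1.24, adjusted p = 0.0014 from limma) and made up most of the summed list, which was 64.9 to 101 FPKM in MOELOW and 36.1 to 53.7 FPKM in MOEHIGH. The part of such cells in the results was not tested.

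The rest of the pathway was read from lists of 58 further symbols, 52 of them in the tables and 13 above the minimum. Of these 13, 3 were higher, 8 lower and 2 not called, with a median log2 fold change of -0.71, where the median of all tested genes was -0.05 and 32.1% of them were lower and 24.3% higher. Soluble regulators made up 4 of the lower calls. The gene lists, here and elsewhere, were chosen with earlier results of these data known, so these shares and the median are description only. Among the lower genes, Thbd, Cfhr2, C4bp and C3ar1 reached the minimum only through MOELOW, and among the higher ones Itgb2 did so only through MOEHIGH.

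**Figure D4:**
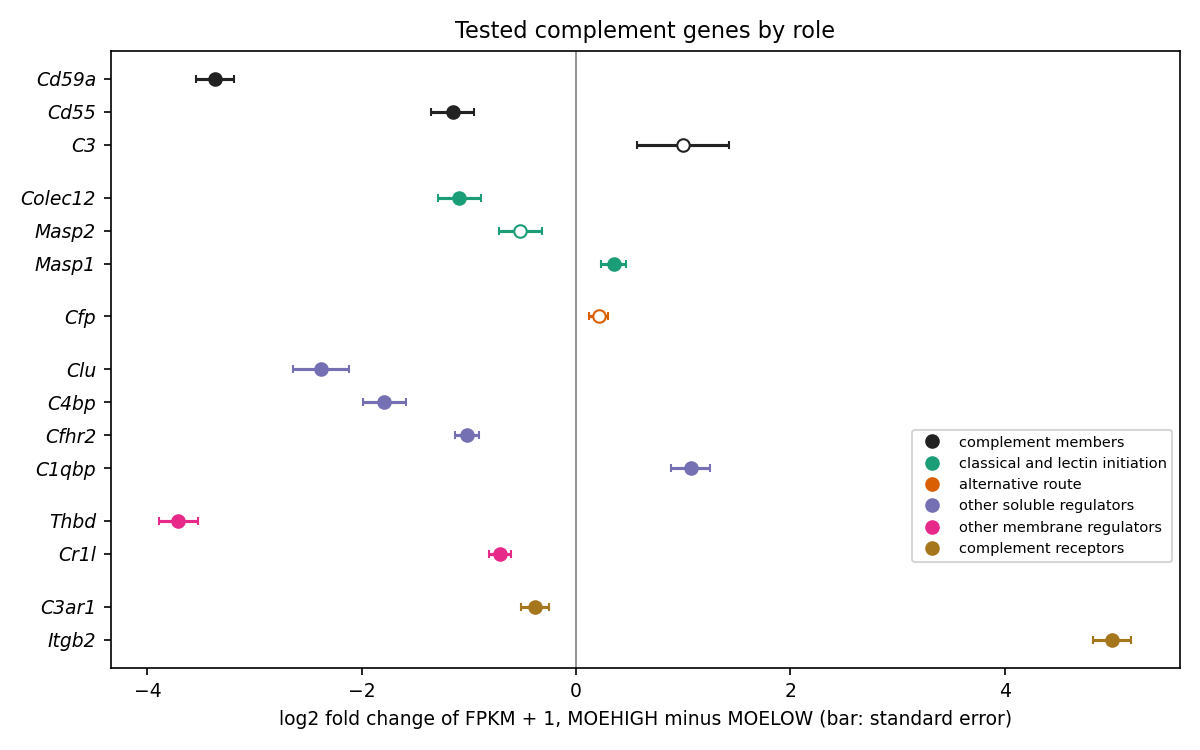
Log2 fold change of FPKM + 1 (MOEHIGH minus MOELOW, bars for the standard error) of the 3 tested members and of other tested complement genes, grouped by role, with filled points for called genes. Regulators from Thbd and Cd59a to Cr1l lie left of 0, and Itgb2, C1qbp and Masp1 are the called genes to the right.

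Among soluble regulators, clusterin (Clu), which binds the forming membrane attack complex, fell from 29.2 ± 1.17 to 5.10 ± 2.21 FPKM (SD, here and below over n = 3 passages), or by -2.38 on the log2 scale (adjusted p = 0.00014 from limma). C4bp, a cofactor for the breakdown of C4 fragments, fell from 4.07 ± 1.28 to 0.449 ± 0.203 FPKM (adjusted p = 0.00015 from limma), and Cfhr2 from 1.14 ± 0.179 to 0.0533 ± 0.0296 FPKM (adjusted p = 0.00013 from limma). C1qbp, which binds C1q but is chiefly a mitochondrial protein, rose from 209 ± 10.3 to 448 ± 103 FPKM (log2 fold change 1.07, adjusted p = 0.0013 from limma). The remaining 5 soluble regulators in the tables were below the minimum, 3 of them listed at 0 in 6 of 6 libraries.

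Properdin (Cfp), which stabilizes the enzyme that cleaves C3 in the alternative route, was at 23, 23.4 and 22.7 FPKM in MOELOW and at 28.9, 25.4 and 26.2 FPKM in MOEHIGH. Its values did not overlap between groups, but the difference of 0.21 on the log2 scale did not pass the test (95% interval -0.0097 to 0.43, adjusted p = 0.094 from limma), and it passed with libraries scaled by the median of ratios (0.27, adjusted p = 0.042 from limma). Factor D (Cfd), the protease that activates factor B, was listed at 0 in 6 of 6 libraries. Of 17 genes of the classical and lectin routes in the tables, 14 were below the minimum, and 6 of these, among them the C1q genes C1qa, C1qb and C1qc, were listed at 0 in 6 of 6 libraries. The collectin gene Colec12, which encodes a scavenger receptor, fell from 2.87 ± 1.12 to 0.772 ± 0.169 FPKM (adjusted p = 0.0022 from limma). The lectin route protease Masp1 rose from 0.807 ± 0.0993 to 1.31 ± 0.269 FPKM (adjusted p = 0.043 from limma). That call was lost without any single library other than passage 90, at the threshold of 0.01 and against a 2-fold change. It was also lost with equal summed FPKM and with the replicate block (adjusted p = 0.12 and 0.058 from limma). Masp2, of the same route, was at 1.75 ± 0.273 and 0.961 ± 0.506 FPKM (adjusted p = 0.059 from limma), and it was called lower without passage 90, without passage 113 and with the replicate block (adjusted p = 0.047, 0.036 and 0.021 from limma). In the annotation 3118 bases of Masp2 overlap Tardbp, 1022 of Masp1 overlap Rtp4 and 9048 of Colec12 overlap the pseudogene Gm17430, among other overlaps of listed genes. None of the 7 terminal component genes, which form the membrane attack complex, reached the minimum, and their highest single value was 0.270 FPKM, of C8g in passage 9.

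Of the complement receptors, Itgb2, the shared beta chain of complement receptors 3 and 4 and of other leukocyte integrins, rose from 0.466 ± 0.210 to 46.3 ± 10.1 FPKM (log2 fold change 5.0, adjusted p = 5.1e-07 from limma). Its complement receptor partners were low, with Itgam listed at 0 in 6 of 6 libraries and Itgax at 0.0117 FPKM in passage 10 and at 0 in the others. C3ar1, the receptor of the fragment C3a, fell from 0.854 ± 0.0856 to 0.433 ± 0.220 FPKM (log2 fold change -0.38, adjusted p = 0.040 from limma). That call was also lost without any single library other than passage 90, at the threshold of 0.01 and against a 2-fold change. With libraries scaled by the median of ratios it was lost too (adjusted p = 0.053 from limma). The receptor C5ar1 was listed at 0 in 6 of 6 libraries.

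Genes that carry cytokine signals to complement genes in other tissues moved in both directions. Of 21 tested, 12 were lower, 6 higher and 3 not called, against 32.1% lower and 24.3% higher among all tested genes. Cebpd, Osmr, Nfkbia and Il6st fell, with log2 fold changes of -2.45, -2.32, -2.12 and -1.86. They encode a C/EBP factor, the oncostatin M receptor, an NF-kappaB inhibitor and the shared receptor of the interleukin-6 family. The other C/EBP gene of the list, Cebpb, rose from 69.2 ± 14.9 to 242 ± 78.0 FPKM (log2 fold change 1.76, adjusted p = 0.00070 from limma), and Socs3, Irf1 and Rela rose by 1.42, 0.73 and 0.49 on the log2 scale. Of 23 acute phase genes, which are induced with complement genes in liver, 3 were above the minimum, 2 were lower and 0 were higher. The ceruloplasmin gene Cp was one of them, at 38.4 ± 6.13 FPKM in MOELOW and 17.0 ± 5.90 FPKM in MOEHIGH (log2 fold change -1.18, adjusted p = 0.0052 from limma).

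By position, the 6 nearest tested genes around Cd55, 3 on each side, included 2 lower, 1 higher and 3 not called, and around Cd59a 1 lower, 1 higher and 4 not called. C4bp, reported above, was 1 of the lower neighbors of Cd55. Around C3, 3 neighbors were lower and 1 was higher. Among all tested genes 32.1% were lower and 24.3% higher. The lowest coordinates of C4b and Cfb lie 128235 bases apart on chromosome 17. Their neighbors were partly shared and included the same 2 higher genes, Tnxb and Zbtb12, and 0 lower genes.

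Among genes averaging 5 FPKM or more, those whose profile over the 6 libraries was most like that of a called member were found by Euclidean distance between log2(FPKM + 1) values, each centered on its own mean. For Cd59a they were A130040M12Rik (distance 0.21) and Tmem86a (0.24). Tmem86a was at 56.2, 41.6 and 37.8 FPKM in MOELOW and at 3.57, 4.81 and 2.80 FPKM in MOEHIGH. For Cd55 they were the protease gene Htra1 (0.27) and 2210013O21Rik (0.33), both at 23.9 FPKM or more in every library, so the likeness concerns the differences on this scale and not the level.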

How the data were processed

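RNA of 3 passages of MOELOW and 3 of MOEHIGH was sequenced as strand-specific libraries depleted of ribosomal RNA. Alignment to mm10 by the authors used TopHat2 2.0.8b. The deposited FPKM come from their Cufflinks and Cuffdiff 2.1.1 step with UCSC annotation, 1 table of 23141 entries per library. In 6 of 6 tables the column heading gave a different passage, or none, so each library was taken from its record. Where a symbol was repeated, its highest-mean entry was taken, which concerned no listed gene.

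Tests were made in R 4.3.3 with limma 3.58.1 (two-sided, variance trend on mean expression, no replicate block) on log2(FPKM + 1) over all genes averaging 0.5 FPKM or more, since the authors' Cuffdiff test needs reads. The limma step was tested on simulated data with normal noise around each gene's mean over all libraries. That setting does not model genes near the lowest values in MOEHIGH alone, such as Cd55, Cd59a and Thbd. Positions, promoters and overlaps came from RefSeq on GRCm38.p6, whose coordinates are those of mm10. Promoters were matched for 5 of 9 members. Transcript lengths came from GENCODE M21. Python 3.11.15 with pandas 2.3.3 and matplotlib 3.10.9 was used besides.

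Members and lists were chosen with earlier results of these data known. Named genes were the members, the complement genes of the lists above the minimum (1 is counted but not reported here), up to 4 called genes per direction of the cytokine and acute phase lists averaging 5 FPKM or more, and markers. Copies of members, genes listed at 0, Itgax and C8g were named after their values were seen.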

Additional observations from a re-analysis of the deposited data

How the results depend on the processing

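Alternatives were 0.1 or 0.01 as pseudocount, all genes above 0, only genes averaging 5 FPKM or more, 3 scalings of the libraries, a threshold of 0.01, testing against a 2-fold change, the replicate block, no variance trend, summed entries, leaving out each library, and, chosen after seeing the data, zeros treated as missing. Over the single complement genes, 267 values under these alternatives kept direction and call, 22 lost and 7 gained a call, and 0 turned direction. Members called lower numbered 2, and 3, with Cfi added, when all genes above 0 were tested. They numbered 1 among genes averaging 5 FPKM or more, where fewer genes were tested. Against a 2-fold change they also numbered 1, as the added constant caps the fall of Cd55 little above 2-fold. Members called higher numbered 0, and 1 (C3) with the replicate block (adjusted p = 0.048 from limma). The other complement genes called lower went from 8 to 4 in both of those settings, and those called higher from 3 to 1 against a 2-fold change. All genes called lower went from 3734 to 2350 among genes averaging 5 FPKM or more and to 907 against a 2-fold change, and those called higher from 2826 to 303. Leaving out single libraries gave 0 to 1 members called higher and 2 called lower, 7 to 9 other complement genes lower and 2 to 3 higher, and 3163 to 4314 genes lower and 2203 to 3335 higher in all.

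Equal replicate numbers did not pair the libraries (correlations of deviations from group means -0.0236, -0.147 and 0.123), and the replicate block gave 3839 lower and 2967 higher genes. Scaling to equal summed FPKM moved the median log2 fold change of all genes to -0.105, from -0.052, and Cd55 and Cd59a stayed lower. The number of fragments is unknown, so how far depth limits the 6 members below the minimum cannot be given.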
